A study of Homo sapiens with 9 samples.

Results

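The genes described here are 10 ligands and effectors of the Notch pathway: the ligand genes JAG1, JAG2, DLL1 and DLL3, the transcriptional repressor genes HES1, HES4, HES5 and HEY1, and the modulators NRARP and LFNG. They were taken from the tables by gene symbol, and all 10 were found among the 46427 genes of the count and FPKM tables. All 10 also passed the filter on low counts, which left 20685 genes for testing. HES5 passed it through the differentiated cells, since it had no count in stem cells.

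Messenger RNA was sequenced in 9 libraries of H9 cells, a widely used line of human embryonic stem cells (hESC), with 3 libraries in each of 3 groups. The first group was undifferentiated, untreated hESC. The second, called control NPC, was neural progenitor cells (NPC) taken from the same line to day 11 of a differentiation towards midbrain dopamine neurons with 200 nM LDN193189, an inhibitor of BMP receptors, 10 µM SB431542, an inhibitor of TGF-beta receptors, 2 µM purmorphamine, a Hedgehog agonist, and 3 µM CHIR99021, a GSK3 inhibitor that activates WNT signalling. The third, called BafA1 NPC, was day 11 NPC of the same protocol that had received bafilomycin A1 (BafA1), an inhibitor of the proton pump that acidifies lysosomes, at 10 nM for 6 h. Several day windows for BafA1 are listed, and which of them applied to the sequenced cells is not stated. Libraries of a group are described as biological replicates, all of a single line, without a statement on whether groups were grown together, so that p-values measure the spread between these libraries.

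Notch is a receptor that is cut after it binds a ligand of the Jagged (JAG) or Delta-like (DLL) family on a neighbouring cell. The freed intracellular part enters the nucleus, joins the DNA-binding protein RBPJ and a Mastermind coactivator, and switches on HES and HEY genes, whose products repress other genes, and NRARP, whose product limits the signal. In the developing nervous system HES proteins hold progenitors in an undifferentiated state by repressing proneural genes, which in turn raise DLL1. The receptor is processed in endosomes and degraded in lysosomes, the compartment that BafA1 acts on.

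Promoters of the effector genes are shown first because RBPJ is known to bind the motif GTGGGAA. The 3 HES genes and NRARP are all known as targets of the pathway. RefSeq promoter windows of GRCh38.p14 were matched for 7 of the 10 genes, namely JAG1, JAG2, HES1, HES4, HES5, NRARP and LFNG. The 130 bases before the annotated start of 4 of them follow, 5′ to 3′ on the strand of the gene, with GTGGGAA or its inner TGGGAA in capitals. They are chr3:194136018-194136147 on the plus strand for HES1, and chr1:1000098-1000227, chr1:2530264-2530393 and chr9:137302272-137302401 on the minus strand for HES4, HES5 and NRARP.
HES1: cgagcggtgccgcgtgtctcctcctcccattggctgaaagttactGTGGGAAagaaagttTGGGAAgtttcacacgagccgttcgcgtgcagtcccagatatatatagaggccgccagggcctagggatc
HES4: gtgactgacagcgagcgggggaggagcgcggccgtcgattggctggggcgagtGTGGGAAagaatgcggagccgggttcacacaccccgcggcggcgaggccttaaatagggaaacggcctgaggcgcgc
HES5: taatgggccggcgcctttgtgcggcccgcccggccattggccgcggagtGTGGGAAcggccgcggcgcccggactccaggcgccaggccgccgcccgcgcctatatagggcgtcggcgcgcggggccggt
NRARP: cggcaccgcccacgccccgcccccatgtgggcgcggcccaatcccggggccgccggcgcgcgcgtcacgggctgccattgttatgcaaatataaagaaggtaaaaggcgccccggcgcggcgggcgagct

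In all 3 HES promoters GTGGGAA lay on the strand of the gene and at a similar distance, its first base being 85 bases before the start in HES1, 77 in HES4 and 81 in HES5. Over the 250 bases before the start, searched on both strands, GTGGGAA was present in 5.43% of 35114 RefSeq promoter windows, and the shorter TGGGAA contained in it in 20.8%. HES1 had a second TGGGAA starting 70 bases before its start, and HES5 had a second GTGGGAA on the opposite strand beginning 224 bases before its start. Windows with at least 2 TGGGAA made up 2.9% of the total. Neither form was found in the windows of NRARP, JAG1 and JAG2, and 1 of the 2 LFNG windows held a TGGGAA 248 bases before its start. Repressors of the HES family are known to bind the N-box CACNAG and the class C box CACGCG. The HES1 window held 3 N-boxes, 165, 132 and 58 bases before the start, and 2 class C boxes, 120 and 47 bases before it. Single matches were found in JAG2, a class C box 236 bases before the start, and in 1 LFNG window, an N-box 53 bases before it. N-boxes occurred in 32% of all windows and class C boxes in 9.72%. These are matches of letters in fixed windows, not measured binding. A link between these matches and the changes of the genes described below was not tested.

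Library totals were 43124679 to 69703791 counts. Levels below are CPM (counts scaled to library size) after TMM scaling, changes are log2 fold changes with standard errors (SE) from edgeR's quasi-likelihood test on all 9 libraries, and a gene was called at an adjusted p under 0.05. The pluripotency genes POU5F1, TDGF1 and PRDM14 had no count in control NPC, and summed pluripotency markers were 3589 to 3800 CPM in hESC, 58.7 to 66.9 in the control group and 52.0 to 54.7 in the BafA1 group. Nearly all of the NPC sums was DPPA4, at 63.9 CPM in control and 53.6 CPM in BafA1 NPC. The other 5 markers summed on average to 3075 CPM in hESC, 0.248 in the control group and 0.137 in the BafA1 group. Of the neural progenitor markers, PAX6 had no count in hESC and was low in NPC, at 0.380 CPM in control and 1.04 CPM in BafA1. SOX1, at 0.0236 CPM in hESC, was at 23.86 and 15.002 CPM in the NPC groups, NR2F1 went from no count to 159 and 110 CPM, and SOX2, shared with stem cells, was at 216 CPM in hESC, 272 CPM in control NPC and 344 CPM in BafA1 NPC. The trend of a gene's level with its GC content differed between groups: the rank correlation of GC with each library's deviation from the gene mean was 0.0998 to 0.189 in hESC, -0.360 to -0.144 in the control group and -0.0359 to 0.0515 in the BafA1 group. It is a description across 17489 genes, and changes with this trend removed are given where they end a call or move a value.

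BafA1 NPC were compared with control NPC to ask what the treatment did at day 11. All 4 ligand genes were higher in BafA1 NPC, as were HES1, HES4, HES5 and LFNG. HEY1 and NRARP were not called. The counts were therefore 8 higher, 0 lower and 2 not called, against 20.8% of all tested genes called higher and 20.7% called lower. The 8 genes were also those whose groups did not overlap, with every BafA1 library above every control library, which held for 24.1% of all genes. The median change of the 10 genes was 0.92, against 0.00 over all genes. The 10 genes were chosen with earlier results of these data known. These counts and the median therefore describe them and do not test them as a group. Scaling by library size alone shifted the all-gene median by -0.12 and turned the all-gene calls from 4309 higher and 4277 lower to 3104 higher and 5681 lower, while 7 of the 10 genes were called higher and 0 lower, LFNG being the one lost. Removal of GC and length trends shifted that median the other way, by 0.14, with 5993 genes called higher and 2993 lower, and 8 of the 10 genes higher. With limma on log2(FPKM + 1) over all genes above 0, 5 of the 10 were called higher, without DLL3, HES5 and LFNG. In bulk RNA, a change in the number of cells of a type and a change of RNA per cell cannot be told apart.

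**Figure D1:**
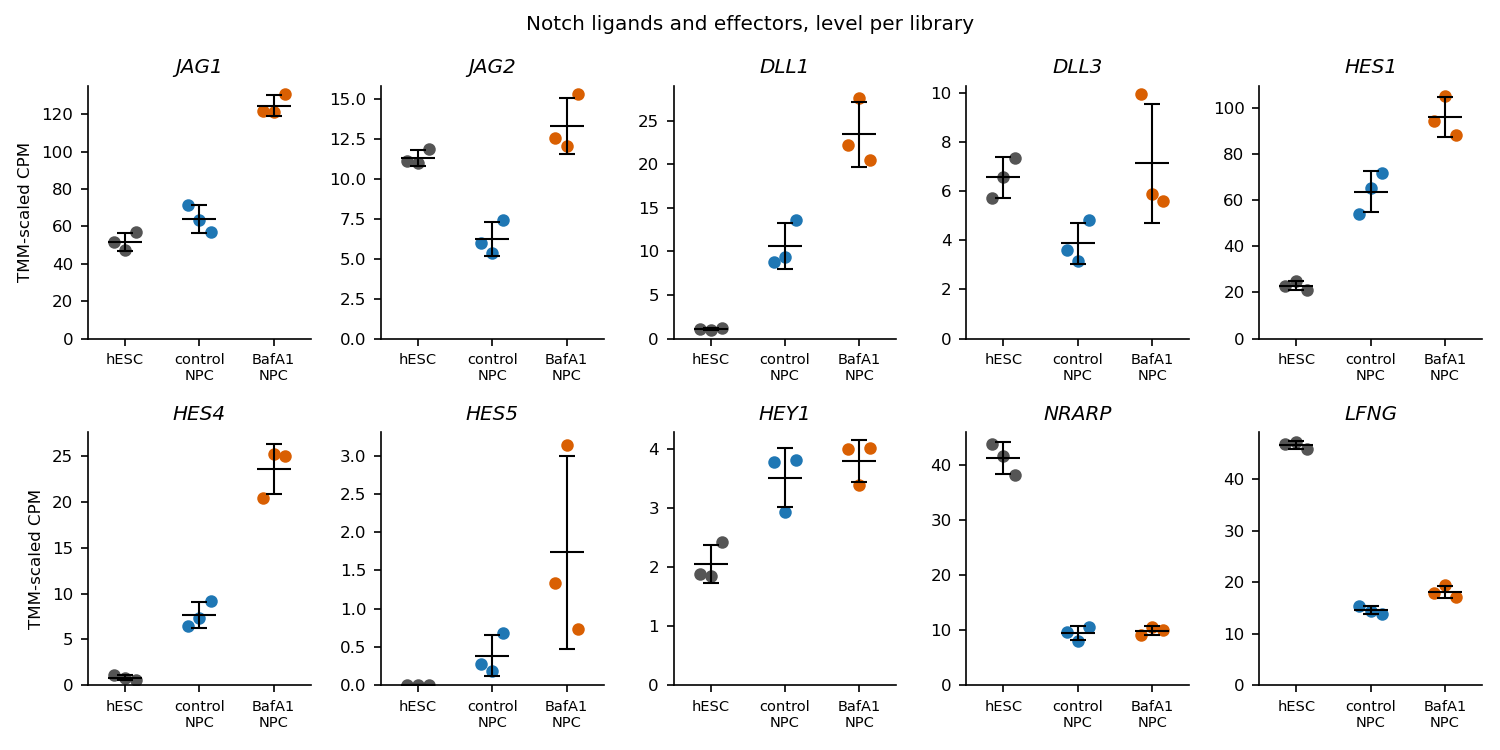
Level of the 10 Notch genes in each library, as TMM-scaled CPM on linear axes that start at 0; points are libraries, and horizontal lines and bars are the mean and SD of 3 libraries. BafA1 points of the 4 ligands, the 3 HES genes and LFNG lie above all control points, whereas those of HEY1 and NRARP overlap the control points.

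Among the ligands, JAG1, a ligand with a large extracellular part that is broadly used in progenitors, had the highest FPKM of the 4 in each group. It was at 51.5, 47.3 and 56.9 CPM in the hESC libraries, 71.6, 63.3 and 56.9 CPM in control NPC, and 122, 121 and 131 CPM in BafA1 NPC. The BafA1 libraries were all well above the other 6, and the highest hESC library matched the lowest control library. The change with BafA1 was 0.96 ± 0.10 SE (edgeR adjusted p = 3.91e-05). Control NPC were higher than hESC by 0.30 ± 0.10 SE (edgeR adjusted p = 0.0199), and that call was lost with GC and length trends removed (0.16, adjusted p = 0.216) and in 3 of the fits that left out a library, namely without hESC replicate 1 (0.0626), hESC replicate 2 (0.0984) or control replicate 1 (0.0868).

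JAG2, the second Jagged ligand, fell in differentiation and was higher again with BafA1. Its level was 11.1, 11.0 and 11.9 CPM in hESC, 5.95, 5.32 and 7.41 CPM in control NPC, and 12.6, 12.1 and 15.3 CPM in BafA1 NPC. None of the 3 groups overlapped, with control NPC lowest and BafA1 NPC highest. The changes were -0.86 ± 0.15 SE from hESC to control NPC (edgeR adjusted p = 0.000282) and 1.10 ± 0.15 SE with BafA1 (edgeR adjusted p = 0.000175). BafA1 NPC against hESC gave 0.24, with an approximate 95% interval of -0.05 to 0.52, and was not called. It was called higher in 1 of 20 alternatives, a fit with a replicate block and GC and length trends removed (0.38, edgeR adjusted p = 0.0225).

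DLL1, the Delta-like ligand that proneural factors raise in differentiating progenitors, had the largest rise of the ligands in differentiation. It was at 1.11, 0.939 and 1.21 CPM in hESC, 8.82, 9.38 and 13.6 CPM in control NPC, and 22.3, 27.7 and 20.4 CPM in BafA1 NPC. The groups formed 3 separate steps. Control NPC exceeded hESC by 3.28 ± 0.21 SE (edgeR adjusted p = 5.70e-08), and BafA1 NPC exceeded control NPC by 1.14 ± 0.18 SE (edgeR adjusted p = 0.000425). DLL1 overlaps the protein-coding gene FAM120B on chromosome 6, and the use of strand in counting is not stated, so that some reads could have been assigned to either. FAM120B fell by 0.32 on the log2 scale with BafA1, from 57.7 to 46.2 CPM (edgeR adjusted p = 0.00518), the opposite direction to DLL1, and was higher in control NPC than in hESC by 1.03, from 28.3 to 57.7 CPM (edgeR adjusted p = 2.12e-07), the same direction as DLL1. The part of shared reads in either change was not tested.

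DLL3, a divergent Delta-like protein known to act inside the cell that makes it rather than as an activating ligand, was the most variable of the 4. It was at 5.73, 6.59 and 7.37 CPM in hESC, 3.62, 3.18 and 4.82 CPM in control NPC, and 9.94, 5.87 and 5.61 CPM in BafA1 NPC. BafA1 replicate 1 stood far above the other BafA1 libraries, which were only slightly above the highest control library and within the hESC range or just under it. The change with BafA1 was 0.88 ± 0.24 SE (edgeR adjusted p = 0.0111), and was not called without control replicate 2 (adjusted p = 0.0519). The fall from hESC to control NPC was -0.76 ± 0.24 SE (edgeR adjusted p = 0.0138). That call ended with GC and length trends removed (-0.54, adjusted p = 0.0743), without hESC replicate 3 (0.0514) and without control replicate 2 (0.0609).

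Levels of different genes were compared as FPKM, which is scaled by transcript length. The FPKM summed over the 4 ligand genes was 12.2 ± 1.20 (SD, n = 3) in hESC, 14.8 ± 0.627 in the control group and 26.7 ± 1.41 in the BafA1 group. JAG1 gave most of that sum in every group, 62.0% in hESC, 65.6% in the control group and 63.7% in the BafA1 group. The shares of the other ligands moved between hESC and control NPC and then differed little between the NPC groups. DLL1 gave 2.04%, 17.1% and 18.9% of the ligand sum in hESC, control NPC and BafA1 NPC, and DLL3 gave 22.0%, 10.7% and 10.3%. JAG2 gave 13.9%, 6.57% and 7.16%. The ligand sum was 25.1 to 27.9 in the BafA1 libraries and 14.1 to 15.4 in the control libraries, without overlap, whereas the range of each ligand's share in BafA1 NPC overlapped that in control NPC.

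HES1, a repressor that Notch targets in most tissues, had the highest FPKM of the 10 genes in both NPC groups. It was at 22.6, 25.1 and 21.1 CPM in hESC, 54.0, 65.0 and 71.9 CPM in control NPC, and 94.2, 105 and 88.4 CPM in BafA1 NPC. The 3 groups did not overlap and rose in that order. Control NPC exceeded hESC by 1.47 ± 0.12 SE (edgeR adjusted p = 3.91e-07), and BafA1 NPC exceeded control NPC by 0.59 ± 0.11 SE (edgeR adjusted p = 0.00161).

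HES4, a related repressor that has a counterpart in most vertebrates but not in mice, had a larger change than HES1 in both comparisons. It was at 1.09, 0.773 and 0.563 CPM in hESC, 6.43, 7.37 and 9.24 CPM in control NPC, and 20.4, 25.3 and 25.1 CPM in BafA1 NPC. Again every library of a group lay above every library of the group before. The changes were 3.24 ± 0.23 SE from hESC to control NPC (edgeR adjusted p = 1.37e-07) and 1.62 ± 0.19 SE with BafA1 (edgeR adjusted p = 7.96e-05), the latter being 1.20 with GC and length trends removed.

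HES5, the effector most restricted to neural progenitors, was scarce. It had 0 counts in each hESC library, 14, 11 and 39 counts in control NPC, and 73, 129 and 47 counts in BafA1 NPC, which was 0.270, 0.186 and 0.686 CPM and 1.33, 3.14 and 0.730 CPM. Control replicate 3 nearly reached BafA1 replicate 3, so the groups were separated by a narrow gap, and BafA1 replicate 2 was far above the rest. The change with BafA1 was 2.16 ± 0.62 SE (edgeR adjusted p = 0.0190). It was not called without control replicate 1 (1.97, adjusted p = 0.0645), control replicate 2 (1.83, adjusted p = 0.0685) or BafA1 replicate 2 (1.43, adjusted p = 0.0897), and on the log2(FPKM + 1) scale with limma over all genes above 0 the difference was 0.67 (adjusted p = 0.0639). Against a floor of 3 counts per hESC library, which covers counting error only, HES5 was at least 7.49-fold higher in control NPC and at least 34.1-fold higher in BafA1 NPC than in hESC.

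HEY1, a repressor of the HES-related HEY family, differed between hESC and NPC but was not called between the NPC groups. It was at 1.89, 1.86 and 2.42 CPM in hESC, 3.79, 2.94 and 3.82 CPM in control NPC, and 4.01, 3.39 and 4.02 CPM in BafA1 NPC. The NPC groups overlapped. Control NPC exceeded hESC by 0.77 ± 0.19 SE (edgeR adjusted p = 0.00324). BafA1 NPC against control NPC gave 0.12 ± 0.18 SE (edgeR adjusted p = 0.646), with an approximate 95% interval of -0.24 to 0.48. That interval leaves room for a change in either direction. Its upper end was below the estimates of HES1, HES4 and HES5, taken without their own errors. A difference between these genes was not tested.

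The makeup of the effector group changed along with its total. Summed FPKM of HES1, HES4, HES5 and HEY1 was 13.8 ± 0.876 (SD, n = 3) in hESC, 44.9 ± 6.03 in the control group and 70.8 ± 2.31 in the BafA1 group. HES1 gave 90.6% of it in hESC, 80.9% in the control group and 69.5% in the BafA1 group, and its share in the BafA1 libraries, 67.0 to 71.9%, lay below that in the control libraries, 80.05 to 82.4%. HES4 gave 3.56%, 15.4% and 27.1%, with 14.7 to 16.1% in control libraries and 24.8 to 30.3% in BafA1 libraries. With 3 libraries a group no exact permutation test of these shares can reach a two-sided p under 0.10, and they are given as values.

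**Figure D2:**
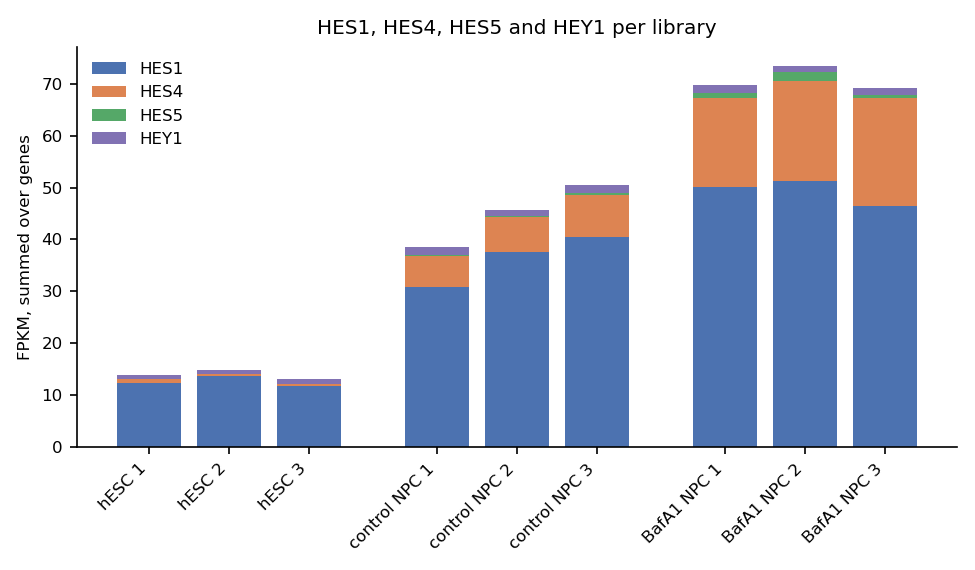
FPKM of HES1, HES4, HES5 and HEY1 stacked in each of the 9 libraries, on a linear axis from 0. The HES4 segment takes 27.1% of the bar on average in BafA1 NPC and 15.4% in control NPC, and HES5 and HEY1 are thin segments throughout.

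NRARP, a small ankyrin-repeat protein that is induced by Notch and limits it, had the opposite course to HES1, HES4 and HES5 in differentiation. It was at 43.8, 41.5 and 38.0 CPM in hESC, 9.63, 7.99 and 10.5 CPM in control NPC, and 9.09, 10.6 and 10.0 CPM in BafA1 NPC. All hESC libraries were far above the NPC libraries, and the NPC groups overlapped. The fall was -2.13 ± 0.12 SE (edgeR adjusted p = 1.83e-08), and the value with BafA1 was 0.08 ± 0.12 SE (edgeR adjusted p = 0.633), with an approximate 95% interval of -0.15 to 0.31. Neither NRARP nor HEY1 had a settled sign with BafA1: both were below 0 under library size alone, in the limma fits of FPKM and without control replicate 2, and NRARP also with GC and length trends removed.

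LFNG, a glycosyltransferase that adds a sugar to Notch and so favours Delta-like over Jagged ligands, followed the course of NRARP in differentiation but not with BafA1. It was at 46.8, 47.3 and 45.8 CPM in hESC, 15.4, 14.5 and 13.9 CPM in control NPC, and 17.8, 19.4 and 17.1 CPM in BafA1 NPC. The 3 groups were separate, with a narrow spread in each. LFNG fell by 1.68 on the log2 scale from hESC to control NPC (SE 0.09, edgeR adjusted p = 9.25e-09) and was higher with BafA1 by 0.31 ± 0.09 SE (edgeR adjusted p = 0.0120). That small rise was not called under library size alone (0.18, adjusted p = 0.117), with only the 6 NPC libraries in the fit (adjusted p = 0.0531) or with limma on log2(FPKM + 1) (0.14, adjusted p = 0.128).

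Control NPC were compared with hESC to give the scale of the differentiation. Of the 10 genes, 6 were higher in control NPC (JAG1, DLL1, HES1, HES4, HES5 and HEY1) and 4 were lower (JAG2, DLL3, NRARP and LFNG). Over all genes 33% were called higher and 31.6% lower, so that a call in either direction, at 64.5%, was the rule in this comparison. Excluding overlap, 5 were higher and 4 lower, against 37% and 35.8% of all genes. The median change of the 10 was 0.54, against 0.03 over all genes. This comparison shares the control libraries with the comparison for BafA1, so that the values of both are not independent, and they stand side by side here without a test between them. JAG2, DLL3 and LFNG fell in differentiation and were higher with BafA1, whereas JAG1, DLL1, HES1, HES4 and HES5 were higher in both. HES5 had no count in hESC and passed the filter through the NPC libraries, so that its place among the higher genes was fixed by that filter, and it was not called in differentiation with limma on log2(FPKM + 1) (0.28, adjusted p = 0.234, or 0.362 over all genes above 0).

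**Figure D3:**
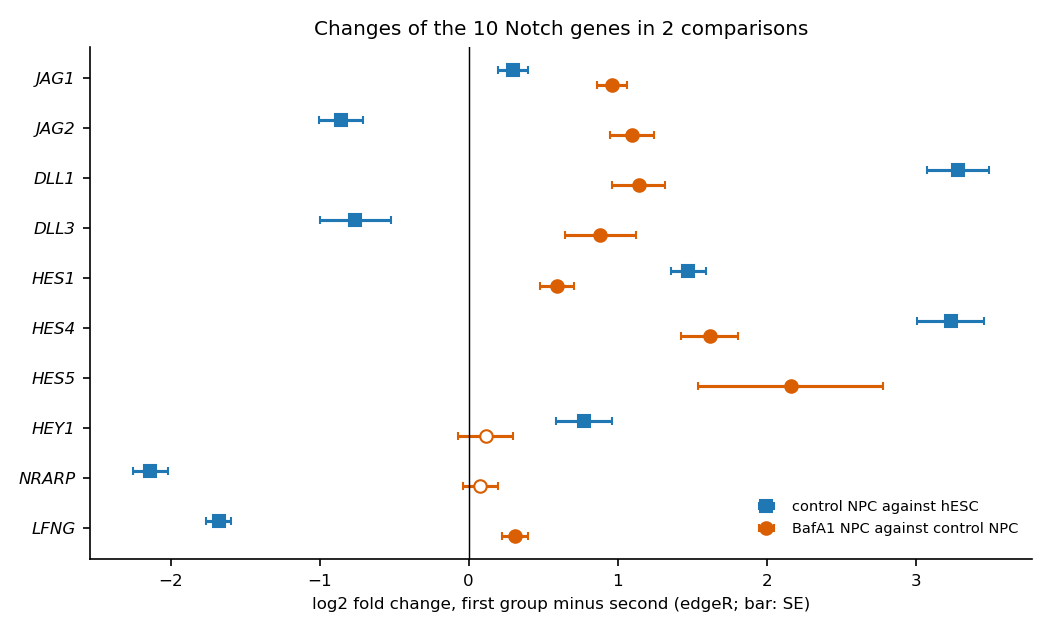
Log2 fold change (horizontal axis, edgeR; bars are SE) of each gene in control NPC against hESC (squares) and in BafA1 NPC against control NPC (circles); filled symbols have an adjusted p under 0.05. The first comparison runs from -2.13 for NRARP to 3.28 for DLL1, and the second from 0.08 for NRARP to 2.16 for HES5; HES5 has no square because hESC had no HES5 count and its fold change is only a lower bound.

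BafA1 NPC set directly against hESC, which share libraries with both comparisons above, were higher in 6 genes and lower in 2, with 35.5% of all genes called higher and 34.8% lower, 70.4% together. JAG1 (1.26), DLL1 (4.43), HES1 (2.06), HES4 (4.85), HEY1 (0.89) and HES5 were higher. NRARP (-2.06) and LFNG (-1.36) were lower. JAG2 and DLL3 were not called, with BafA1 NPC at 13.3 and 7.14 CPM and hESC at 11.3 and 6.56 CPM.

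In order of FPKM, LFNG led in hESC at 16.5, followed by NRARP at 13.4 and HES1 at 12.5, the ranges of the last pair overlapping, and then by JAG1 at 7.54. In control NPC the order was HES1 at 36.3, JAG1 at 9.68, HES4 at 6.92, LFNG at 5.39 and NRARP at 3.18, and only NRARP among them overlapped its next neighbour, DLL1 at 2.52. In BafA1 NPC it was HES1 at 49.2, HES4 at 19.2, JAG1 at 17.0, LFNG at 6.05 and DLL1 at 5.01, with HES4 and JAG1 overlapping. HES1 thus passed from the third place in hESC to the first in both NPC groups. HES5 was last in each group, listed at 0 in hESC, at 0.228 in the control group and at 1.02 in the BafA1 group, where its range overlapped that of HEY1 at 1.38.

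The remaining genes of the pathway were taken from lists made by role, 71 genes in all, and are described by their counts, to be read against the 20.8% of all genes called higher and 20.7% called lower with BafA1, and against 33% and 31.6% in differentiation. With BafA1 none of these lists was called in 1 direction throughout, apart from the proneural factors with 1 called gene. Of the 4 receptors, 1 was higher and 2 were lower. NOTCH1, the receptor most studied in neural progenitors, went from 69.0 ± 2.24 to 89.7 ± 10.8 CPM (SD, n = 3; log2 change 0.38 ± 0.09 SE, edgeR adjusted p = 0.00634), and was not called under library size alone (0.26, adjusted p = 0.0758) or in the limma fits. NOTCH4, known mainly from endothelium, fell from 2.08 to 0.877 CPM (-1.25 ± 0.26 SE, edgeR adjusted p = 0.00284). NOTCH3 fell from 230 to 177 CPM (-0.38 ± 0.13 SE, edgeR adjusted p = 0.0296), with groups that overlapped and a call lost without control replicate 1 (adjusted p = 0.120), control replicate 2 (0.0714), BafA1 replicate 2 (0.105) or BafA1 replicate 3 (0.105). NOTCH2 was at 194 and 212 CPM and not called (edgeR adjusted p = 0.568), its level being uncertain because near-identical NOTCH2NL copies exist. With GC and length trends removed NOTCH2 was called higher (0.27, adjusted p = 0.0494). In differentiation NOTCH2 was higher by 1.90 and NOTCH3 by 0.63, and NOTCH1 and NOTCH4 were lower, at -0.70 and -1.10.

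**Figure D4:**
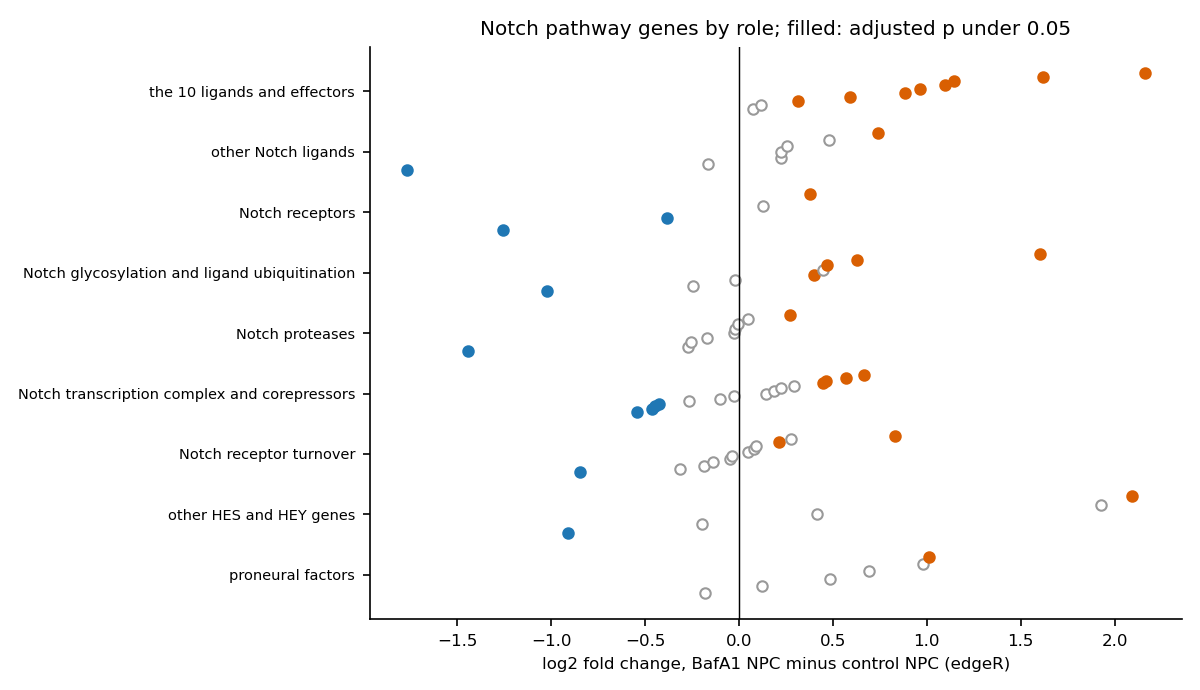
Log2 fold change of BafA1 NPC against control NPC (horizontal axis, edgeR) for each tested gene of 9 lists of Notch pathway genes by role; filled points have an adjusted p under 0.05, orange higher and blue lower. In the top row 8 of 10 points are filled and all of those are higher, and in other rows with several filled points both directions occur. HES3 is left out because it had no count in BafA1 NPC. The lists were chosen with earlier results of these data known, so the rows are a description.

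Among 8 genes for glycosylation of the receptor and ubiquitination of the ligand, 4 were higher and 1 was lower. The other fringe genes moved with LFNG: MFNG went from 1.55 to 4.73 CPM (1.60 ± 0.26 SE, edgeR adjusted p = 0.000606) and RFNG from 23.3 to 36.0 CPM (0.63 ± 0.10 SE, edgeR adjusted p = 0.000359). POGLUT1, which adds glucose to Notch, fell from 22.0 to 10.8 CPM (-1.02 ± 0.13 SE, edgeR adjusted p = 0.000121). MIB1, the ubiquitin ligase that acts on ligands, was at 152 and 149 CPM (edgeR adjusted p = 0.903), and its sign turned positive with GC and length trends removed (0.27, adjusted p = 0.0488).

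Of 9 genes for the proteases that cut Notch, 1 was higher and 1 was lower. PSEN2, a catalytic subunit of gamma-secretase, fell from 14.7 to 5.43 CPM (-1.44 ± 0.17 SE, edgeR adjusted p = 7.66e-05). NCSTN, another subunit, had 0.27 ± 0.07 SE (edgeR adjusted p = 0.0111), and was not called under library size alone (0.14, adjusted p = 0.140) or without control replicate 2 (adjusted p = 0.0561).

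Of 15 genes for the nuclear complex and its corepressors, 4 were higher and 4 lower. RBPJ, the DNA-binding partner, went from 161 ± 11.7 to 255 ± 66.7 CPM (SD, n = 3; 0.66 ± 0.16 SE, edgeR adjusted p = 0.00568), with a wide spread in BafA1 NPC of 183 to 315 CPM, and was not called with limma on log2(FPKM + 1) (0.44, adjusted p = 0.0748). The coactivator MAML3 was higher by 0.57 ± 0.09 SE (edgeR adjusted p = 0.000461). The corepressor TLE3 was lower, at -0.43 ± 0.09 SE (edgeR adjusted p = 0.00374). Of 12 genes for receptor turnover, 2 were higher and 1 was lower. FBXW7, which marks the intracellular part of Notch for degradation, went from 38.2 to 68.1 CPM (0.83 ± 0.09 SE, edgeR adjusted p = 4.49e-05). DTX3L fell from 5.63 to 3.14 CPM (-0.84 ± 0.13 SE, edgeR adjusted p = 0.000475). NUMB, an inhibitor of Notch inherited by 1 daughter cell, had 0.22 ± 0.08 SE (edgeR adjusted p = 0.0384), and that call was lost in 13 of 20 alternatives, among them library size alone (0.09, adjusted p = 0.406).

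Of 7 other ligand genes tested, DNER was higher with BafA1, from 1.51 to 2.52 CPM (0.74 ± 0.20 SE, edgeR adjusted p = 0.0100). DLL4, the Delta-like ligand best known from vessels, had 24 to 34 counts per control library and 4 to 10 per BafA1 library (-1.77 ± 0.54 SE, edgeR adjusted p = 0.0260), and its call was lost in 7 of 20 alternatives, among them leaving out any 1 control library (adjusted p = 0.0566 to 0.0850), BafA1 replicate 1 (0.0683) or BafA1 replicate 3 (0.0911). DLL4 had no count in hESC and passed the low-count filter through control NPC, the group where it was highest, so that its fall is given as a description. DLK1, a non-canonical ligand, was not called with BafA1 (0.26 ± 0.24 SE, edgeR adjusted p = 0.410) and was higher in control NPC than in hESC by 4.34. The contactin CNTN6, described as a non-canonical ligand, rose in differentiation from 0.0341 to 45.2 CPM.

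Of 6 other HES and HEY genes tested, HES7, the oscillating repressor of somite formation, was higher with BafA1. It ranged from 0.501 to 1.25 CPM in control libraries and from 3.26 to 4.91 CPM in BafA1 libraries (2.10 ± 0.31 SE, edgeR adjusted p = 0.000324). HES6, known to oppose HES1 and to favour neuronal differentiation, fell from 18.8 to 10.0 CPM (-0.91 ± 0.14 SE, edgeR adjusted p = 0.000320). In differentiation 5 of these 6 genes were lower and 1 was higher, against 31.6% and 33% of all genes. HES2, with 0 to 8 counts per control library, and HES3, with 0 to 2, passed the low-count filter through hESC. Both were highest in that group, so that their falls were fixed by the filter. HES2 was scarce in hESC too, at 12 to 29 counts per library. HES3 went from 5.39 CPM in hESC to 0.0117 CPM in control NPC, HEY2 from 9.05 to 0.879 CPM (-3.37), and HES6 from 47.0 to 18.8 CPM (-1.32).

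The proneural factors, which HES proteins repress and which raise DLL1, were higher in control NPC than in hESC for 6 of 6 genes tested, against 33% of all genes, and were at or near 0 in hESC, so that they passed the low-count filter through the NPC groups. NEUROG1 and NEUROG2 had no count in hESC and were at least 14.0-fold and at least 55.5-fold higher in control NPC. With BafA1, NEUROG1 was higher, from 0.714 to 1.44 CPM (1.01 ± 0.29 SE, edgeR adjusted p = 0.0196). That call was lost without control replicate 1 (adjusted p = 0.0571), control replicate 2 (0.0736) or BafA1 replicate 1 (0.0616). NEUROG2, at 2.82 and 3.97 CPM, was not called (edgeR adjusted p = 0.372). No proneural gene was called lower with BafA1, and the 6 had a median change of 0.59.

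Markers of other cells that such cultures could hold were summed per library and are given beside the changes of the Notch genes. Their calls, here and in the next paragraph, are to be read against all tested genes. Of those, 20.8% were called higher and 20.7% lower with BafA1. Neuronal markers summed to 652 to 696 CPM in control NPC and 683 to 734 CPM in BafA1 NPC, with 2 of 8 genes higher and 0 lower. Neural progenitor markers summed to 5939 to 6813 and 8889 to 11931 CPM, with 3 of 8 higher and 2 lower, and midbrain floor plate markers to 444 to 771 and 604 to 814 CPM, with 3 of 8 higher and 0 lower. The neuronal and floor plate sums overlapped between the NPC groups, and the progenitor sum did not. VIM made up most of the progenitor sum, at 5104 CPM in control and 9578 CPM in BafA1 NPC, and the other 7 markers summed to 1171 to 1189 and 1125 to 1354 CPM, with overlap, SOX1 and NR2F1 being the 2 called lower.

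Mesenchymal markers summed to 1141 to 1888 CPM in control NPC and 2078 to 2308 CPM in BafA1 NPC, with 3 of 8 higher and 3 lower. Endoderm markers summed to 120 to 181 and 237 to 292 CPM, with 2 of 6 tested genes higher and 1 lower, GATA4 having no count in either group and SOX17 none in control NPC. Neural crest markers summed to 61.6 to 98.0 and 84.4 to 109 CPM, with 3 of 7 tested genes higher and 0 lower, FOXD3 at 0 in both groups and SOX10 at 0 in control NPC. Endothelial markers stayed at 28.7 to 38.3 and 30.0 to 33.2 CPM, with 1 of 7 tested genes higher and 1 lower, EMCN at 0 in both groups and PECAM1 at 0 in control NPC. The mesenchymal sum rested on COL1A1, at 1211 CPM in control and 1963 CPM in BafA1 NPC, and the endoderm sum on CXCR4, at 93.2 and 218 CPM. Without these genes the mean sums went the other way. For mesenchyme the libraries ran from 239 to 300 CPM in control and from 205 to 246 CPM in BafA1 NPC, with overlap. For endoderm they ran from 51.4 to 61.8 CPM in control and from 33.1 to 48.1 CPM in BafA1 NPC, without overlap. The part of these cell types in the changes of the Notch genes was not tested.

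The genes with the most similar profile to each Notch gene were named by the root mean square difference of log2(CPM + 0.5), each profile centred on its own mean over the 9 libraries, among genes reaching 5 CPM in a group. JAG1 was nearest to MYH9 (0.0918), which encodes a non-muscle myosin heavy chain, and S100A10 (0.106). JAG2 was nearest to TMEM108 (0.0992) and ALDH1L2 (0.118), and LFNG to DAZAP1 (0.0939) and VASP (0.0968). MYH9 was at 450 CPM in hESC, 555 CPM in control NPC and 1082 CPM in BafA1 NPC, a pattern of levels like that of JAG1.

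DLL1 was nearest to MIR100HG (0.184) and to CRABP2 (0.193), a retinoic acid binding protein gene that was at 17.7 CPM in hESC, 117 in the control group and 271 in the BafA1 group. HES1 was nearest to CCDC169 (0.106) and PRRT2 (0.122), and HES4 to DIRAS2 (0.196) and COL8A1 (0.274). DLL3 was nearest to OSBPL10 (0.172) and BAMBI (0.179), HEY1 to TUT4 (0.0999) and DIP2A (0.09995), and NRARP to ZBTB3 (0.107) and SSTR2 (0.112). HES5 had the least similar neighbours, EEF1A1P19 (0.331) and TPI1P1 (0.346), which are processed pseudogenes whose reads cannot be separated with certainty from those of their parent genes. None of these genes belonged to the other lists of pathway genes.

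The changes with BafA1 were recomputed under 20 alternatives. JAG1, JAG2, DLL1, HES1 and HES4 were called higher in each of them, with ranges of 0.76 to 1.15, 0.56 to 1.24, 0.78 to 1.36, 0.44 to 0.69 and 1.20 to 1.77. DLL3 ranged from 0.52 to 1.07, HES5 from 0.67 to 2.91 and LFNG from 0.14 to 0.35, without a change of sign but with lost calls. HEY1 ranged from -0.04 to 0.26 and NRARP from -0.14 to 0.16.

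**Figure D5:**
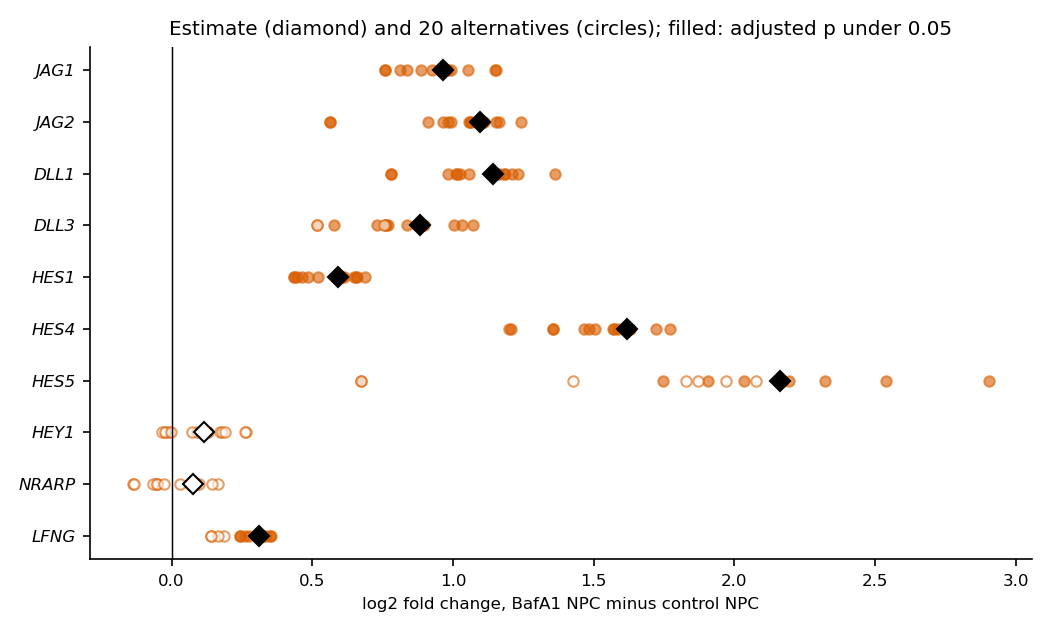
Log2 fold change of BafA1 NPC against control NPC (horizontal axis) for each gene in the reported fit (diamond) and in 20 alternatives (circles); filled symbols have an adjusted p under 0.05. All circles of JAG1, JAG2, DLL1, HES1 and HES4 are filled and above 0, those of HES5 spread from 0.67 to 2.91, and those of HEY1 and NRARP straddle 0.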

How the data were processed

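Read counts and FPKM of 10 Notch genes were examined in 9 libraries in 3 groups. The labels' protocols name a TruSeq kit for stranded mRNA libraries, and Trimmomatic and GRCh38 are named in the submitters' processing notes. No source used here gives the aligner, the counter or the strand setting. Whole-number counts per gene, not normalised, and FPKM per gene, scaled by library and length, were what the authors deposited, per the file headers. Columns named control were matched to untreated NPC, the only group left.

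Counts were tested with edgeR 4.0.16 in R 4.3.3: filterByExpr, TMM, a quasi-likelihood fit of all 9 libraries with 1 term per group and no robust estimation, two-sided, adjusted by Benjamini-Hochberg over 20685 genes, called under 0.05. The code of the test was run on simulated counts with the same dispersion for every gene, few changed genes and no GC trend. That setting is simpler than these data, and no result here rests on it. Alternatives were library size alone, DESeq2 size factors, DESeq2 1.42.0, no low-count filter, only the 6 libraries compared, limma 3.58.1 on log2(FPKM + 1) or log2(FPKM + 0.1), limma without the filter, removal of GC and length trends (GENCODE v29, 84.5% of genes), a replicate block with and without that removal, and leaving out each library. Intervals are approximate, from the SE.

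Promoters came from RefSeq. Named genes were the 10 genes, a set of pathway genes, up to 3 called genes of smallest adjusted p per list, and the 2 nearest profiles per gene. FAM120B and the markers named beside their sums (VIM, COL1A1, CXCR4, SOX1, SOX2, NR2F1, PAX6, DPPA4) were named after values were seen. Members and lists were chosen with earlier results of these data known.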

Additional observations from a re-analysis of the deposited data

How the results depend on the processing

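With BafA1, the call was lost in 2 of 20 alternatives for DLL3, 6 for HES5 and 5 for LFNG, and HES5 rested on at most 129 counts per library. Called values of the 10 genes kept their direction in every alternative run, and their sign changes were in values that were not called. HEY1 with BafA1 was -0.011 under library size alone and -0.022, -0.035 and -0.022 in the limma fits of log2(FPKM + 1), log2(FPKM + 0.1) and log2(FPKM + 1) without the filter. NRARP was -0.054 under library size alone, -0.14 with GC and length trends removed, and -0.052, -0.065 and -0.052 in those limma fits. NOTCH2 was -0.062, -0.068 and -0.062 in them, and was called higher with GC and length trends removed (0.27, adjusted p = 0.0494). Leaving out 1 library at a time gave -0.00049 (without control replicate 2) to 0.19 for HEY1, -0.028 (without control replicate 2) to 0.16 for NRARP and -0.12 to 0.10 (without BafA1 replicate 2) for MIB1. NOTCH2 was at its lowest, -0.14, without BafA1 replicate 1, as was DLL3 in BafA1 NPC against hESC, -0.20. DLL3 in that comparison was -0.0040 with limma on log2(FPKM + 0.1). With GC and length trends removed MIB1 was 0.27 with BafA1, and -0.042 in differentiation, where it had been called higher (0.38).

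The limma fit of all genes above 0 called 5 of the 10 genes higher with BafA1, in place of 8, and 2520 of all genes higher, in place of 4309. Leaving out 1 library gave 6 to 8.

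Deviations of same-numbered libraries were weakly correlated at most (r = -0.061 to 0.149), and the numbers were not taken as pairs. Differently numbered libraries had r = -0.149 to 0.115. Between control NPC and hESC the same-numbered values were all positive (0.092, 0.036 and 0.149), and differently numbered ones ran from -0.149 to 0.056. The replicate block called 7 genes higher with BafA1, HES5 being lost (2.08, adjusted p = 0.0602). The block with GC and length removal called 7 of the 10 higher and 2737 of all genes lower, in place of 4277, and gave NRARP -0.13, and MIB1 0.26 with BafA1 and -0.039 in differentiation. The causes of these shifts were not tested.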
